A study of Mus musculus with 8 samples.

Results

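Vascular endothelial growth factor (VEGF) ligands and their receptors were followed across the cell classes of the mouse islet. The 9 genes were set by name as rows of the deposited count table, which holds 19945 genes, and all 9 were found: the ligand genes *Vegfa*, *Vegfb*, *Vegfc* and *Pgf*, the receptor tyrosine kinase genes *Kdr* (VEGFR2), *Flt1* (VEGFR1) and *Flt4* (VEGFR3), and the co-receptor genes *Nrp1* and *Nrp2*. Islets were handpicked from wild-type mice given vehicle or the focal adhesion kinase inhibitor (FAKi) PF562271 by mouth, with 50 mg/kg at each of 2 doses per day for 3 weeks, and were collected 10 days after the last dose. The islets of 5 mice were pooled for each treatment and made into 1 single-cell 3′ RNA-seq library, so that the 8 samples are 4 sequencing lanes of each of 2 libraries. The table holds 6959 cells, 3776 from the vehicle library (59514118 unique molecular identifiers, UMIs; median 10101.5 per cell) and 3183 from the FAKi library (57836783 UMIs; median 13688 per cell), with an annotation of 12 classes and 17 clusters. The lanes carry the same cells and give no spread between mice, and no test of treatment was possible.

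VEGF-A is secreted by epithelial and stromal cells and acts on neighbouring endothelium. VEGFR2 is the main signalling receptor of blood vessel endothelium, VEGFR1 binds VEGF-A, VEGF-B and placental growth factor (the product of *Pgf*) and can act as a decoy, and VEGFR3 binds VEGF-C and marks lymphatic endothelium. Neuropilins bind VEGF family ligands together with these kinases and also serve as receptors for semaphorins. In islets, VEGF-A made by endocrine cells is known to maintain a dense, fenestrated capillary bed.

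Levels are given in CPM: the UMIs of a gene summed over the cells of a class in a library, per 1000000 UMIs of all genes in those cells. Intervals are 95% and exact (Poisson for a level, conditional binomial for a ratio, Clopper-Pearson for a share of cells) and cover counting error only, not the spread between mice. Because 3′ UMI counts were not scaled by transcript length, levels were compared for the same gene between classes and not between genes. A difference between libraries is called past the fold when CPM + 1 differed by at least 1.5-fold in a gene with at least 20 UMIs in that class.

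Several class labels were at odds with marker genes, and this bears on values below. The FAKi cells annotated as T cells were 28, of which 12 had over 5% insulin UMIs, and they carried 456622 CPM of β-cell markers and 108 CPM of T-cell markers, against 1560 CPM of T-cell markers in the vehicle cells of that label, which also held 6586 CPM of neutrophil markers. The FAKi cells annotated as B cells were 9 and carried 808 CPM of dendritic cell markers and 756 CPM of B-cell markers, against 5585 CPM of B-cell markers in vehicle. Within the class labelled δ-cells, cluster 6 held *Sst* at 213487 CPM in vehicle and 219821 CPM in FAKi, whereas cluster 8 held *Ppy*, the pancreatic polypeptide gene, at 278292 and 263888 CPM and *Sst* at 6909 and 7524 CPM. Cluster 8 is therefore described by its number and its leading gene. In the α-cell class *Ppy* and *Pyy* summed to 85523 CPM in vehicle and 34319 CPM in FAKi, and their part in the α-cell ratios below was not tested. The libraries shared 4 cell barcodes.

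Ligand and receptor genes differed in the class of highest level, with *Vegfc* among the genes highest in the class that led the receptors. Among 14092 genes with at least 100 UMIs over all cells, 9.37% had their highest level in endothelial cells in both libraries. Of the 9 members, 6 did so: *Vegfc*, *Kdr*, *Flt1*, *Flt4*, *Nrp1* and *Nrp2*. *Vegfa* was highest in ductal cells in both libraries, as were 14.6% of the 14092 genes, and *Pgf* was highest in pericytes, as were 7.98%. *Vegfb* led in ductal cells for vehicle and in the cells annotated as T cells for FAKi. These ranks hold for a total of all UMIs, and those of *Vegfa* and *Vegfb* changed with another total, as given for each gene below.

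**Figure D1:**
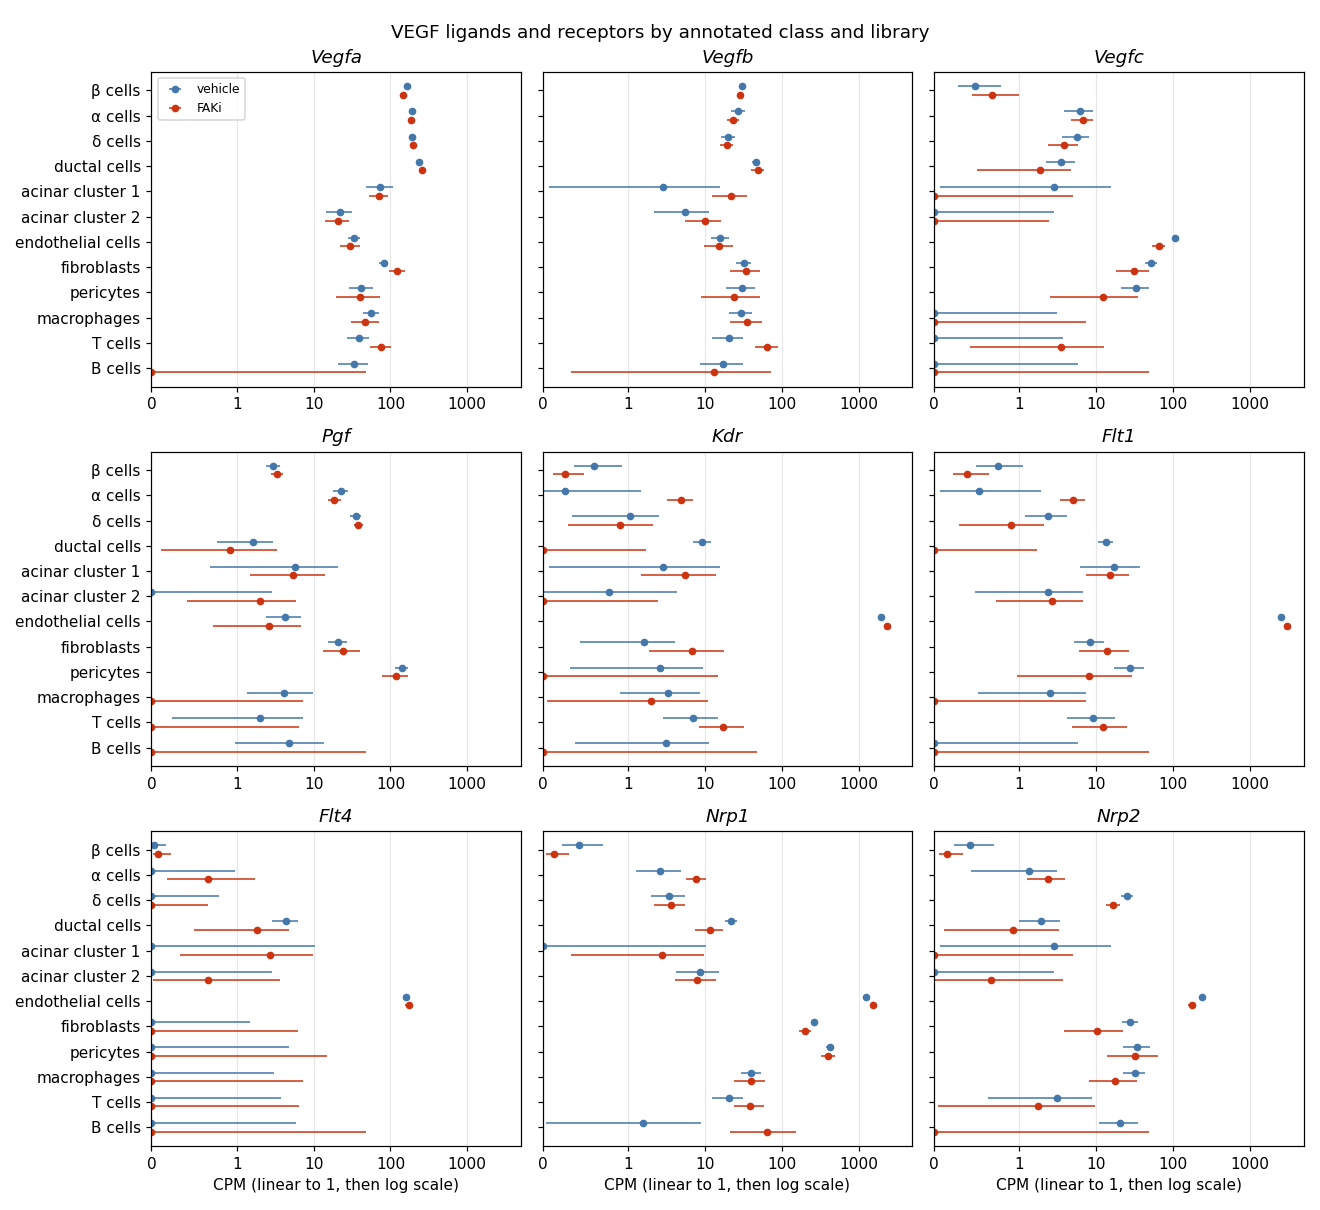
Level of each of the 9 genes (CPM, linear up to 1 and logarithmic above) in the 12 annotated classes, with vehicle in blue and FAKi in red and bars for 95% Poisson intervals. *Kdr*, *Flt1* and *Flt4* stand far above all other classes in endothelial cells, whereas *Vegfa* is spread over endocrine, ductal and stromal classes.

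The genes lie on 7 chromosomes of the mouse build GRCm38 (mm10; GENCODE vM21). The receptor genes *Kdr* (chr5:75932827-75978458, minus strand) and *Flt1* (chr5:147561604-147726011, minus strand) share chromosome 5. *Flt4* is at chr11:49609263-49652739 (plus strand), *Nrp1* at chr8:128358604-128503363 (plus strand) and *Nrp2* at chr1:62703285-62818695 (plus strand). Among the ligand genes, *Vegfa* is at chr17:46016993-46032369 (minus strand), *Vegfb* at chr19:6982473-6987651 (minus strand), *Vegfc* at chr8:54077606-54187096 (plus strand) and *Pgf* at chr12:85166635-85177790 (minus strand).

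The upstream promoter stretches of *Kdr* and *Flt1* are printed because more than 98% of the UMIs of each gene lay in endothelial cells. They were taken from RefSeq on GRCm38.p6, end at the base before the annotated gene and read 5′ to 3′ on the minus strand, and capitals mark GGAA, the core bound by ETS transcription factors, a family with many members in endothelium.
Kdr, chr5:75978459-75978605: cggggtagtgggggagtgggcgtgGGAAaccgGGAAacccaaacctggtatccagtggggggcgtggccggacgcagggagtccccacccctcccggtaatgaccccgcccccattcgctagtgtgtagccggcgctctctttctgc
Flt1, chr5:147726012-147726161: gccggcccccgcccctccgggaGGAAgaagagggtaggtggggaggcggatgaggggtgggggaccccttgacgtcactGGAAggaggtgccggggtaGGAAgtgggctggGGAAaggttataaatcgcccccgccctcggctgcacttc
The stretch of *Kdr* (147 bases) held 2 matches to GGAA and that of *Flt1* (150 bases) held 4. GGAA or its reverse complement TTCC was found in 7 of the 9 members' promoters, and in 80.8% of 32851 promoters of 150 bases, so a match was common and is a description only.

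*Vegfa*, the main angiogenic ligand, was measured in all endocrine classes and in ductal cells. In vehicle its level was 234.3 CPM in ductal cells, 191.8 CPM in α-cells, 191.3 CPM in δ-cells and 164.0 CPM in β-cells. In FAKi the level was 260.6 CPM in ductal cells, 187.7 CPM in α-cells, 194.2 CPM in δ-cells and 143.7 CPM in β-cells. The levels of α-cells and of the whole δ-cell class did not differ beyond counting error in either library, although the *Sst*-rich cluster 6 alone exceeded α-cells by 1.52-fold (1.37 to 1.70) in vehicle and 1.57-fold (1.43 to 1.72) in FAKi. Ductal cells stood above β-cells by 1.43-fold (1.35 to 1.51) in vehicle and 1.81-fold (1.66 to 1.98) in FAKi. Fibroblasts followed at 81.4 and 121.5 CPM, and the second acinar cluster was lowest of the classes outside the lymphocytes, at 21.7 and 20.6 CPM.

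That order depended on the total used as the denominator. The 20 most abundant genes, among them *Ins2*, *Ins1*, *Iapp*, *Gcg* and *Sst*, made up 64.6% of β-cell UMIs in vehicle and 65.7% in FAKi, against 10.9% and 13.5% in ductal cells. With these genes left out of the total, the *Vegfa* level was 463.6 and 419.5 CPM in β-cells, 344.8 and 356.8 CPM in δ-cells, 331.9 and 314.2 CPM in α-cells and 263.1 and 301.1 CPM in ductal cells. β-cells then stood highest of these 4 classes, and the ratio of ductal to β-cells turned to 0.567 in vehicle and 0.718 in FAKi. Taken apart from the δ-cell class, the *Sst*-rich cluster 6 stood at 438.0 CPM in vehicle and 445.0 CPM in FAKi by this total, below β-cells in vehicle and above them in FAKi.

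**Figure D2:**
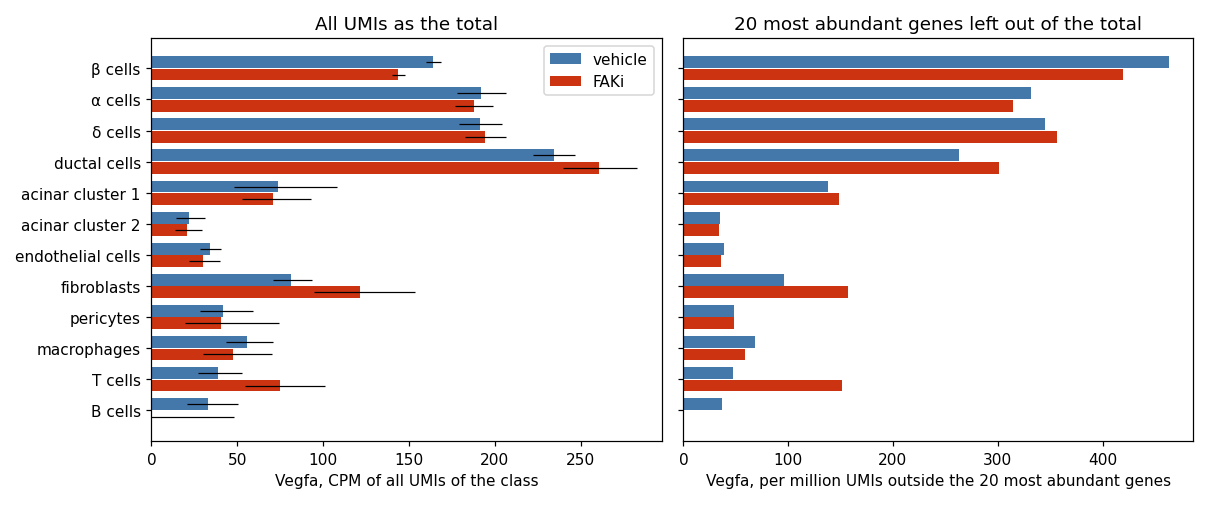
*Vegfa* level (CPM) by class and library, scaled by all UMIs and by the UMIs without the 20 most abundant genes. Ductal cells are highest with the first total and β-cells with the second, at 463.6 CPM in vehicle and 419.5 CPM in FAKi.

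Counted per cell, β-cells carried 5.07 *Vegfa* UMIs in vehicle and 4.13 in FAKi, and ductal cells carried 2.94 and 3.63. A *Vegfa* UMI was found in 91.6% of vehicle and 90.0% of FAKi β-cells. Of all *Vegfa* UMIs, β-cells held 60.1% in vehicle and 64.4% in FAKi. After each cell was thinned to 2000 UMIs, *Vegfa* was detected in 27.2% and 29.2% of β-cells and in 37.6% and 35.3% of ductal cells, shares that include the weight of insulin transcripts in the β-cell total. In endothelial cells the thinned share was 4.64% and 3.52%, against 4.08% (1.12 to 10.1) of vehicle B cells, a class taken as a reference for free RNA. Pooled endothelial detection of *Vegfa* was thus not above that reference at this depth. The level was higher in endothelial cluster 11 than in cluster 3, by 1.60-fold (1.11 to 2.30) in vehicle and 3.47-fold (1.82 to 6.52) in FAKi, from at most 67 UMIs.

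Between libraries the *Vegfa* level in β-cells was lower in FAKi, with a ratio of 0.876 (0.844 to 0.910). On the log2 scale with 1 CPM added this was −0.19, against a median of −0.04 over 13388 genes tested in β-cells. The ratio was 0.979 in α-cells and 1.02 in δ-cells, and both intervals held 1. It was 1.11 (1.01 to 1.23) in ductal cells and 1.49 (1.12 to 1.96) in fibroblasts. Thus the ligand was lower in β-cells and higher in ductal cells and fibroblasts of the FAKi library beyond counting error, each by less than the 1.5-fold limit. Background subtraction moved the β-cell ratio. It was 1.38 after the level of all lymphocytes was subtracted from UMIs and totals. In FAKi that level included the 28 cells annotated as T cells, which carried 456622 CPM of β-cell markers. The ratio was 0.984 when insulin-rich lymphocytes were left out of that level, and 0.906 when the gene alone was subtracted. The summed level of β-cell markers was also higher in FAKi in ductal cells and fibroblasts. It was 24336 CPM in vehicle and 53973 CPM in FAKi ductal cells, and 66818 and 133132 CPM in fibroblasts. Its part in the ratios of these classes was not tested.

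Subclusters of the β- and δ-cell classes differed in *Vegfa* level, whereas α-cell clusters 9 and 5 did not differ beyond counting error (ratio 0.922, 0.768 to 1.10, in vehicle and 0.983, 0.859 to 1.12, in FAKi). In β-cell cluster 10, the level was 1.32-fold (vehicle) and 1.36-fold (FAKi) that of cluster 0, and in cluster 1 it was 0.820 and 0.807 of that of cluster 0. The FAKi to vehicle ratio was 0.893 (0.853 to 0.935) in cluster 0, 0.879 (0.808 to 0.956) in cluster 1 and 0.920 (0.826 to 1.02) in cluster 10. Cluster 10 (121 and 115 cells) also carried *Sst* at 7015 and 8457 CPM and *Gcg* at 10276 and 11956 CPM, and 9.92% and 15.7% of its cells were called doublets; the part of these in its level was not tested. Cluster 6 of the δ-cell class held *Vegfa* at 292.4 CPM in vehicle and 294.1 CPM in FAKi, above ductal cells by 1.25-fold (1.14 to 1.37) and 1.13-fold (1.01 to 1.26). The *Ppy*-rich cluster 8 held 92.7 and 106.1 CPM, which was 0.317 and 0.361 of the cluster 6 level. Without the 20 most abundant genes, which made up 55.5% of vehicle UMIs in cluster 8 and 33.2% in cluster 6, cluster 8 held 208.4 and 240.2 CPM and remained below cluster 6.

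**Figure D3:**
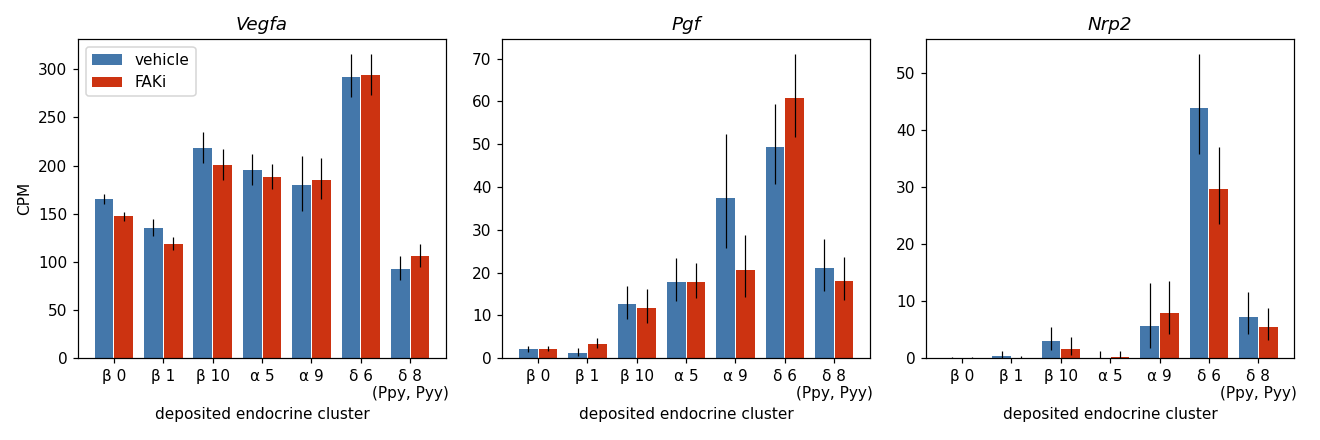
Levels (CPM, with 95% Poisson intervals) of *Vegfa*, *Pgf* and *Nrp2* in the β-, α- and δ-cell clusters of each library. Cluster 6 is above cluster 8 for all 3 genes in both libraries, with *Vegfa* at 292.4 against 92.7 CPM in vehicle.

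*Vegfb* encodes a VEGFR1 ligand. Its level was 45.9 CPM in vehicle and 48.8 CPM in FAKi ductal cells, and 30.6 and 28.7 CPM in β-cells. Ductal cells were thus 1.503-fold (1.31 to 1.72, vehicle) and 1.70-fold (1.38 to 2.08, FAKi) above β-cells, and in vehicle fibroblasts, β-cells, pericytes, macrophages and α-cells followed without neighbours that differed beyond counting error. With the 20 most abundant genes out of the total this order turned as well: β-cells stood at 86.4 and 83.8 CPM and ductal cells at 51.6 and 56.4 CPM, a ratio of ductal to β-cells of 0.597 (0.522 to 0.681) in vehicle and 0.673 (0.546 to 0.822) in FAKi. β-cells then ranked first in vehicle, and the cells annotated as T cells still ranked first in FAKi. The β-cell ratio of FAKi to vehicle was 0.939 (0.861 to 1.02), with 0.841 (0.753 to 0.939) in cluster 0 and 1.13 (0.958 to 1.33) in cluster 1. The FAKi cells annotated as T cells held 64.5 CPM, which did not exceed FAKi ductal cells beyond counting error (ratio 1.32, 0.884 to 1.94), in the class whose markers went against its label.

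*Pgf*, the gene for placental growth factor, was led by pericytes, the mural cells of capillaries, at 139.5 CPM in vehicle and 116.8 CPM in FAKi. The δ-cell class held 35.1 and 38.1 CPM, α-cells 22.4 and 18.6 CPM, fibroblasts 20.6 and 24.0 CPM and β-cells 2.97 and 3.31 CPM. Pericytes stood 3.97-fold (3.08 to 5.10) and 3.07-fold (2.004 to 4.53) above δ-cells, and δ-cells 11.8-fold and 11.5-fold above β-cells. With the 20 most abundant genes out of the total pericytes, δ-cells and β-cells kept this order, at 2.56-fold and 1.99-fold for pericytes over δ-cells and 7.53-fold and 7.24-fold for δ-cells over β-cells. The gene was lowest, among endocrine classes, in the most numerous one. Within β-cells, cluster 10 stood 6.07-fold (vehicle) and 5.39-fold (FAKi) above cluster 0. The part of its *Sst* and *Gcg* UMIs and of its called doublets in these folds was not tested. In the δ-cell class cluster 6 held 49.5 and 60.8 CPM against 21.2 and 18.0 CPM in cluster 8. The pericyte ratio of FAKi to vehicle was 0.837 (0.535 to 1.27) and the δ-cell ratio held 1, whereas β-cell cluster 1 gave 2.73 (1.29 to 6.44) from 37 against 9 UMIs and α-cell cluster 9 gave 0.553 (0.332 to 0.921) from 34 against 33 UMIs.

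*Vegfc* encodes the ligand of VEGFR3 and was highest in endothelial cells, at 107.1 CPM in vehicle and 65.2 CPM in FAKi. Fibroblasts held 52.0 and 30.8 CPM, pericytes 32.6 and 12.1 CPM, α-cells 6.07 and 6.66 CPM and β-cells 0.481 and 0.677 CPM. Endothelial cells exceeded fibroblasts 2.06-fold (1.69 to 2.53) and 2.12-fold (1.27 to 3.72). This rested on cluster 11, with 348 of the 405 vehicle and 88 of the 98 FAKi endothelial UMIs. Cluster 3 held 23.7 and 8.05 CPM, from 57 and 10 UMIs, below the level of fibroblasts. That level was also below the one of pericytes, which rested on only 25 and 3 UMIs. No interval was computed for these steps. Among endocrine classes α-cells exceeded β-cells 12.6-fold and 9.82-fold, or 7.73-fold and 5.63-fold without the 20 most abundant genes in the total. Endothelial cells held 62.4% of *Vegfc* UMIs in vehicle and 46.2% in FAKi. The pooled endothelial ratio of FAKi to vehicle was 0.609 (0.483 to 0.761), which is considered by cluster below.

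The receptor tyrosine kinases lay in the endothelium. *Kdr* was at 1937 CPM in vehicle and 2364 CPM in FAKi endothelial cells, where 98.6% and 98.3% of all its UMIs were found. *Flt1* was at 2565 and 3069 CPM, with 98.1% and 98.3% of its UMIs, and *Flt4* at 157.3 and 175.0 CPM, with 95.5% and 94.9%. A *Kdr* UMI was seen in 91.7% and 91.8% of endothelial cells, and *Kdr* and *Flt1* together in 478 of 543 (88.0%) and 241 of 269 (89.6%). The next class was lower by 212-fold for *Kdr* and 93.7-fold for *Flt1* in vehicle.

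The neuropilins reached beyond the endothelium. *Nrp1* was at 1251 and 1527 CPM in endothelial cells, 426.3 and 402.7 CPM in pericytes, 263.7 and 203.6 CPM in fibroblasts and 40.0 and 39.3 CPM in macrophages. Endothelial cells exceeded pericytes 2.93-fold (2.62 to 3.29) in vehicle and 3.79-fold (3.10 to 4.68) in FAKi and held 79.1% and 85.9% of *Nrp1* UMIs. The order endothelial cells, pericytes, fibroblasts was the same in both libraries and each step exceeded counting error. When the level of lymphocytes not rich in insulin was subtracted from UMIs and totals, the first step gave a ratio of 0.610 in vehicle. That subtraction took a mean lymphocyte total from each pericyte, and median totals were alike. They were 4641 UMIs in vehicle pericytes, 3763.5 in T cells and 4137 in B cells. Little of the pericyte total was left, so this value does not rank these classes. In fibroblasts the ratio of FAKi to vehicle was 0.772 (0.630 to 0.940), and 1.04 after the same subtraction.

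*Nrp2*, the co-receptor of VEGFR3, was at 238.8 CPM in vehicle and 175.7 CPM in FAKi endothelial cells, which held 75.1% and 65.3% of its UMIs. Pericytes (33.9 and 32.2 CPM), macrophages (31.7 and 17.7 CPM), fibroblasts (27.8 and 10.3 CPM) and δ-cells (25.3 and 16.8 CPM) followed, with no neighbours among them that differed beyond counting error. The gene was rare in β-cells, where the level of the whole δ-cell class was 60.1-fold (vehicle) and 107-fold (FAKi) higher and that of cluster 6 was 104-fold and 190-fold higher. The folds of the whole class were 38.3-fold and 67.6-fold without the 20 most abundant genes in the total. By that total cluster 6 held 65.6 and 44.9 CPM, against 1.19 and 0.456 CPM in β-cells, so its folds were smaller too. *Nrp2* lay in cluster 6 (43.8 and 29.6 CPM) more than in the *Ppy*-rich cluster 8 (7.20 and 5.44 CPM). The δ-cell ratio of FAKi to vehicle was 0.664 (0.501 to 0.879), and within cluster 6 it was 0.677 (0.496 to 0.919). A *Nrp2* UMI was also seen in 8.85% of vehicle B cells, at 20.5 CPM. The vehicle level of the whole δ-cell class did not exceed that of B cells beyond counting error (ratio 1.23, 0.693 to 2.38).

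In pooled endothelial cells, 0 of the 9 members were past the fold and higher in FAKi, against 5.11% of 10666 genes, and 1 (*Vegfc*) was past it and lower, against 10.8%. The pooled ratios were 1.22 (1.17 to 1.27) for *Kdr*, 1.20 (1.16 to 1.24) for *Flt1*, 1.11 (0.958 to 1.29) for *Flt4*, 1.22 (1.16 to 1.28) for *Nrp1* and 0.736 (0.639 to 0.845) for *Nrp2*. The endothelial class consists of clusters 3 and 11, and their shares differed between libraries: cluster 11 held 172 of 543 vehicle cells and 40 of 269 FAKi cells. The pooled ratios therefore contain the change in makeup as well as any change within a cluster. Markers of endocrine cells also differed in this class: the summed level of β-cell markers was 54561 CPM in vehicle and 80397 CPM in FAKi and that of α-cell markers 912 and 6137 CPM, and their part in the ratios was not tested.

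Cluster 3, the larger one, held high *Kdr* (2848 CPM in vehicle and 2771 CPM in FAKi), *Flt1* (3455 and 3400 CPM) and *Nrp1* (1846 and 1776 CPM). Cluster 11 held *Kdr* at 336.7 and 428.8 CPM, *Flt1* at 1001 and 1493 CPM and *Nrp1* at 205.5 and 344.5 CPM. It was richer than cluster 3 in *Nrp2*, by 2.16-fold in vehicle and 1.58-fold in FAKi, and in *Vegfc*, at 253.6 and 336.9 CPM against 23.7 and 8.05 CPM. *Flt4* was at 178.8 CPM in vehicle and 194.9 CPM in FAKi in cluster 3, against 119.5 and 80.4 CPM in cluster 11. Cluster 3 held 431 of the 595 vehicle and 242 of the 263 FAKi endothelial *Flt4* UMIs. Thus VEGFR2, VEGFR1 and neuropilin 1 transcripts were concentrated in cluster 3, which also held most *Flt4* UMIs, and the ligand *Vegfc* in cluster 11.

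Within cluster 3, the ratios of FAKi to vehicle were 0.973 (0.934 to 1.01) for *Kdr*, 0.984 (0.948 to 1.02) for *Flt1*, 0.962 (0.914 to 1.01) for *Nrp1*, 1.09 (0.927 to 1.28) for *Flt4* and 0.949 (0.796 to 1.13) for *Nrp2*, and all these intervals held 1. *Vegfc* was lower at 0.340 (0.155 to 0.673). Of the 8 members with enough UMIs there, 0 were past the fold and higher (background 4.92% of 9778 genes) and 1 was past it and lower (9.02%). The pooled increase of *Kdr*, *Flt1* and *Nrp1* was thus not present within the cluster that held most of these transcripts.

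Within cluster 11, the ratios were 1.27 (1.03 to 1.57) for *Kdr*, 1.49 (1.33 to 1.67) for *Flt1*, 1.68 (1.31 to 2.13) for *Nrp1*, 1.33 (1.04 to 1.68) for *Vegfc*, 1.64 (0.923 to 2.78) for *Vegfa* (19 against 61 UMIs), 0.673 (0.405 to 1.06) for *Flt4* and 0.696 (0.530 to 0.901) for *Nrp2*. Of 8 members, 2 (*Vegfa* and *Nrp1*) were past the fold and higher (background 14.4% of 8046 genes) and 0 were past it and lower (16.3%). These values rest on 40 FAKi cells, and the makeup of the cluster differed. *Esm1*, a tip cell marker induced by VEGF and abundant in cluster 3, was found in 9 of its FAKi cells and 3 of its vehicle cells. The part of these cells in the ratios was not tested.

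**Figure D4:**
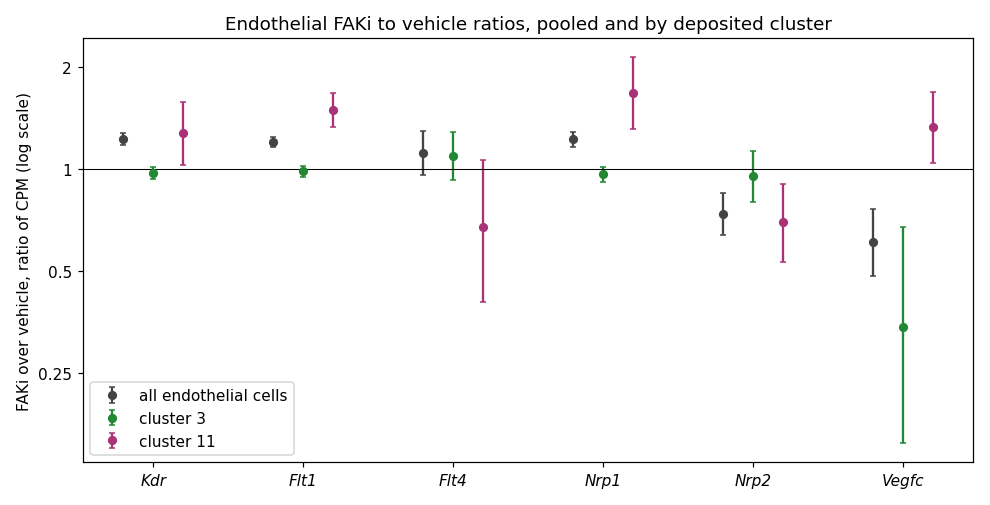
FAKi to vehicle ratio of CPM (log axis, bars for 95% conditional binomial intervals) of *Kdr*, *Flt1*, *Flt4*, *Nrp1*, *Nrp2* and *Vegfc* in all endothelial cells and in clusters 3 and 11. The pooled ratios of *Kdr*, *Flt1* and *Nrp1* lie above 1, those of cluster 3 hold 1, and *Vegfc* is below 1 when pooled (0.609) and above 1 in cluster 11 (1.33), where its interval held 1 without the cells rich in lymphatic markers.

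Cells with at least 3 of 5 lymphatic endothelial markers (*Prox1*, *Lyve1*, *Mmrn1*, *Pdpn*, *Ccl21a*) were 13 in vehicle and 1 in FAKi, all in cluster 11. The 13 vehicle cells held *Flt4* at 1334 CPM, *Nrp2* at 1475 CPM and *Kdr* at 780.6 CPM, and no UMI of *Flt1*, *Nrp1* or *Vegfc*. *Ccl21a*, a lymphatic chemokine, was at 2094 CPM in vehicle and 0 CPM in FAKi in that cluster. They held 123 of the 164 vehicle *Flt4* UMIs of cluster 11 and 136 of its 498 *Nrp2* UMIs. Without the 13 and 1 cells, cluster 11 held *Flt4* at 32.0 CPM in vehicle and 39.4 CPM in FAKi, a ratio of 1.23 (0.549 to 2.49) in place of 0.673, and the ratio was 0.779 (0.577 to 1.03) for *Nrp2* and 1.27 (0.996 to 1.61) for *Vegfc*. Those of *Kdr* (1.38), *Flt1* (1.43) and *Nrp1* (1.61) still had intervals above 1. In the pooled class without these cells, *Flt4* was at 127.9 and 168.5 CPM (ratio 1.32, 1.13 to 1.54) and *Nrp2* at 207.9 and 169.8 CPM (0.817, 0.706 to 0.943). These pooled ratios still contain the change in makeup, with cluster 11 at 159 of 530 vehicle and 39 of 268 FAKi cells. Within cluster 3 the *Flt4* ratio was 1.09 (0.927 to 1.28), so its interval held 1 in each cluster.

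Outside the endothelium, *Kdr* and *Flt1* UMIs were few, and in vehicle ductal cells and FAKi α-cells most of them lay in 1 and 3 cells. In vehicle ductal cells *Kdr* had 57 and *Flt1* 83 UMIs, and 1 cell called a doublet held 121 of these 140 (86.4%). FAKi ductal cells had 0 UMIs of either gene in 156 cells. The exact interval of the ratio of FAKi to vehicle had upper limits of 0.192 for *Kdr* and 0.131 for *Flt1*. In ductal cells 0 of 7 members were past the fold and higher (background 6.1% of 12058 genes) and 5 were past it and lower (background 6.96%): *Vegfc*, *Kdr*, *Flt1*, *Flt4* and *Nrp1*. The intervals of *Vegfc* (0.523, 0.131 to 1.54) and *Flt4* (0.426, 0.108 to 1.22) held 1 with all ductal cells. Without the cell that held 121 of the 140 UMIs, the vehicle counts were 6 and 13 UMIs, and the upper limit was 2.43 for *Kdr* and 0.940 for *Flt1*. The interval of *Nrp1* (0.676) then held 1, and those of *Vegfc* (0.521) and *Flt4* (0.441) still did.

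In α-cells 3 of 7 members with enough UMIs were past the fold and higher in FAKi (*Kdr*, *Flt1* and *Nrp1*), against 5.33% of 11570 genes, and 0 were lower, against 3.54%. *Kdr* had 29 UMIs against 1 (ratio 18.3, 3.03 to 747), *Flt1* 30 against 2 (9.46, 2.40 to 81.7) and *Nrp1* had a ratio of 2.90 (1.44 to 6.45). Of the 59 FAKi *Kdr* and *Flt1* UMIs, 3 cells held 48 (81.4%), each had at least 5 endothelial marker UMIs, and 1 was called a doublet. Without them the ratios were 3.18 (0.356 to 150) for *Kdr*, 1.91 (0.341 to 19.3) for *Flt1* and 1.65 (0.771 to 3.84) for *Nrp1*, all intervals holding 1. In β-cells each of the 5 receptor and co-receptor genes was below 1 CPM in both libraries, 0 of 7 members were past the fold and higher or lower (backgrounds 0.732% and 1.88% of 13388 genes), and in δ-cells 0 of 6 (2.86% and 4.67% of 11786 genes).

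Other genes of the VEGF pathway were read from a list of 37, chosen with earlier results of these data known. In endothelial cells 32 were tested, 1 was past the fold and higher (background 5.11%) and 6 were lower (background 10.8%), with a median log2 ratio of −0.27 against −0.04 over all genes. *Esm1* was the higher gene, at 2100 CPM in vehicle and 3224 CPM in FAKi (ratio 1.53). Cluster 3 held 7909 of its 7944 vehicle and 4769 of its 4845 FAKi endothelial UMIs, and within that cluster the ratio was 1.17 (1.13 to 1.21). The lower genes were *Sema3d*, a semaphorin (ratio 0.444, 0.0834 to 1.54, from 3 against 17 UMIs), *Shb*, an adaptor of VEGFR2 (0.310), *Aplnr*, the apelin receptor (0.648), *Egr3*, an immediate early transcription factor (0.498), *Rcan1*, a calcineurin regulator (0.423), and *Vhl*, which targets HIF for degradation (0.629, 0.293 to 1.24); the intervals of *Sema3d* and *Vhl* held 1. In cluster 3, 0 of 31 were higher (background 4.92%) and 6 were lower (background 9.02%; median −0.36 against −0.06 over all genes): *Sema3c* (ratio 0.518), *Shb* (0.388), *Apln*, the apelin gene (0.518), *Aplnr* (0.615), *Egr3* (0.238) and *Vhl* (0.546), with intervals that held 1 for *Shb* and *Vhl*. In cluster 11, 6 of 26 were higher (background 14.4%) and 2 lower (background 16.3%; median 0.02 against 0.03). The higher genes were *Esm1* (11.4, from 76 against 35 UMIs), *Apln* (3.38), *Dll4*, a Notch ligand of tip cells (2.36), *Nrarp*, a Notch target (1.63), *Pdgfb* (1.60) and *Notch4* (1.59), and the lower ones *Shb* (0.496) and *Rcan1* (0.568), with intervals that held 1 for *Notch4* and *Shb*. The cluster 11 values rest on 40 FAKi cells. In vehicle, each of these 6 higher genes stood higher in cluster 3 than in cluster 11. *Esm1* was at 3282 against 25.5 CPM and *Dll4* at 206 against 58.3 CPM. The part of cells resembling cluster 3 in these ratios was not tested. *Plvap*, a component of the fenestral diaphragm, was at 3929 CPM in vehicle and 3395 CPM in FAKi endothelial cells. *Ptk2*, which encodes focal adhesion kinase, was at 115 and 102 CPM there. In β-cells 0 of 23 tested genes of the list were past the fold, with a median of −0.23 against −0.04 over all genes.

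A list of 15 hypoxia-inducible genes was read in the same way. In endothelial cells 0 of 12 were past the fold and higher (background 5.11%) and 5 were lower (background 10.8%): *Slc2a1*, a glucose transporter (ratio 0.538), *Adm*, adrenomedullin (0.176, 0.0348 to 0.549, from 3 against 43 UMIs), *Bnip3*, a mitophagy receptor (0.559, with an interval that held 1), *Ndrg1* (0.651) and *Ddit4*, an mTOR inhibitor (0.517). Within clusters, 2 of 12 were lower in cluster 3 (background 9.02%), *Adm* (0.188, 0.0367 to 0.602, from 3 against 31 UMIs) and *Pdk1*, a kinase that restrains pyruvate oxidation (0.561, with an interval that held 1), and 3 of 9 in cluster 11 (background 16.3%), *Slc2a1* (0.331), *Bnip3* (0.263, 0.00634 to 1.64, from 1 against 20 UMIs) and *Ddit4* (0.532). None was higher in either cluster, and *Ndrg1* was past the fold in neither (0.756 and 0.944). In β-cells 0 of 11 were past the fold, with a median of −0.08.

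Genes whose level followed each member most closely were named by Pearson's r of log2(CPM + 1) over 24 values (12 classes in 2 libraries), a description only, since the values share libraries and differ in depth. For *Kdr* they were *Ptprb* (r = 0.952), *Pcdh17* (0.951) and *Adgrl4* (0.949), and for *Flt1* they were *Plvap* (0.953), *Emcn* (0.937) and *Mgll* (0.936). *Flt4* was followed by *Tmem252* (0.981), *Cyyr1* (0.966) and *Robo4* (0.956), and *Nrp1* by *Eng* (0.952), *Acvrl1* (0.915) and *Plxnd1* (0.914). *Vegfa* was followed by *Gstz1* (0.945), *Ptprf* (0.942) and *Maged1* (0.936). The leading genes were *Cdr2l* for *Vegfc* (0.944), *Rgs7bp* for *Pgf* (0.887), *Smim20* for *Vegfb* (0.886) and *Fmnl3* for *Nrp2* (0.885).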

How the data were processed

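Mouse islet single-cell 3′ RNA-seq was analysed from the deposited table of UMI counts, with the classes, clusters and percent of mitochondrial UMIs that the authors assigned to each cell. Per the submitters' processing notes, Cell Ranger, Seurat 3.1 and mm10 were used by the authors. The labels give 8832 vehicle and 8437 FAKi cells, and the deposited table holds 3776 and 3183, all at or below 8.00% mitochondrial UMIs. Counts were summed by class and library and scaled to CPM; lanes were not replicates. With 1 library per group no test was run, and differences were called at 1.5-fold of CPM + 1 in genes with at least 20 UMIs. Doublets were called with scrublet per library (scanpy 1.11.5; 68 and 57 cells) and kept except in an alternative. Python 3.11.15, numpy 2.4.6, scipy 1.17.1 and pandas 2.3.3 were used. In independent Poisson counts simulated for genes with at least 100 UMIs (11059 in β-cells, 6653 in endothelial cells), 200 were changed 4-fold, and intervals covered the true ratio for 97.5% and 95.5% of these 200. The intervals follow from the same model, so this coverage checks the computation only. It says nothing on UMIs that clump in single cells. Members and lists were chosen with earlier results of these data known. Named genes were the members, list genes past the fold with at most 6 others, and the 3 genes most like each member. The class and cluster pairs, the limits of 5 UMIs and 3 of 5 markers, the motif and the added alternatives were settled after values were seen. Alternatives changed the filter, pseudocount, total, weighting of cells, doublets, mitochondrial limit and background.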

Additional observations from a re-analysis of the deposited data

Results flagged for a closer look

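Classes whose FAKi to vehicle ratios lay on opposite sides of 1, each with an interval that excluded 1 when all annotated cells were used, are listed here; the difference between classes was not tested, and the intervals cover counting error in 1 library per treatment. The *Vegfa* ratio was 0.876 in β-cells, and 1.11 in ductal cells, 1.49 in fibroblasts and 1.95 in the cells annotated as T cells, a class whose FAKi cells carried β-cell markers. The summed β-cell marker level was also higher in FAKi in ductal cells and fibroblasts. Under background subtraction from all lymphocytes, which in FAKi included these cells annotated as T cells, the β-cell ratio was 1.38. It was 0.984 when insulin-rich lymphocytes were left out of the subtracted level. The *Kdr* ratio was 1.22 in endothelial cells and 18.3 in α-cells, and 0.434 in β-cells (10 against 20 UMIs); in ductal cells FAKi had 0 UMIs, a ratio of 0.151 when set at a floor of 3 counts (upper limit of the exact interval 0.192). The endothelial ratio was 0.973 (0.934 to 1.01) within cluster 3, and without the 3 α-cells that held most of these UMIs the α-cell ratio was 3.18 (0.356 to 150). Without 2 vehicle β-cells that held at least 5 *Kdr* and *Flt1* UMIs, the β-cell ratio was 0.666 (0.261 to 1.64). The *Flt1* ratio was 1.20 in endothelial cells and 9.46 in α-cells, and 0.104 in ductal cells when set at the same floor (upper limit 0.131). Within endothelial cluster 3 it was 0.984 (0.948 to 1.02), and without the same 3 α-cells 1.91 (0.341 to 19.3). Without the 1 vehicle ductal cell that held most *Kdr* and *Flt1* UMIs there and was called a doublet, ductal counts were 0 against 6 UMIs for *Kdr* (upper limit of the ratio 2.43) and 0 against 13 for *Flt1* (upper limit 0.940). The *Nrp1* ratio was 1.22 in endothelial cells and 2.90 in α-cells, and 0.525 in ductal cells and 0.772 in fibroblasts (1.04 under subtraction of lymphocytes not rich in insulin). Within endothelial cluster 3 it was 0.962 (0.914 to 1.01), without the 3 α-cells it was 1.65 (0.771 to 3.84), and without that ductal cell the ductal *Nrp1* ratio was 0.676 (0.419 to 1.05).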

How the results depend on the processing

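Of 254 alternatives to 30 results, 187 stayed within the counting interval in the same direction, 56 moved and 11 reversed. No paired analysis was possible because lane numbers mark sequencing lanes of the same cells and each treatment had 1 library. By cluster, the log2 ratio of FAKi to vehicle in endothelial cluster 3 was −0.040 for *Kdr*, −0.023 for *Flt1* and −0.056 for *Nrp1*, and in cluster 11 it was 0.35 for *Kdr*, 0.58 for *Flt1* and 0.41 for *Vegfc*. *Vegfa* in β-cells was −0.12 in cluster 10. With the 20 most abundant genes out of the total, the log2 ratio of *Vegfa* between ductal and β-cells was −0.82 in vehicle and −0.48 in FAKi, that between α- and β-cells −0.48 and −0.42, and pooled endothelial *Flt1* was 0.31. Without doublets, pooled *Kdr* was 0.37 and *Flt1* 0.35; with cells under 5% mitochondrial UMIs they were 0.17 and 0.15, and the ductal to β-cell *Vegfa* value in vehicle was 0.60. As a mean over cells, *Kdr* was 0.22 and the ductal to β-cell value in FAKi 0.70. Subtraction of the lymphocyte level turned *Vegfa* in β-cells to 0.46 and gave 1.06 for ductal to β-cells in vehicle; the FAKi cells annotated as T cells carried β-cell markers. Without insulin-rich lymphocytes, a version added after that reversal was seen, the values were −0.024 in β-cells and 1.00 and 1.44 for ductal to β-cells, 0.054 for *Nrp1* in fibroblasts and −0.71 for *Nrp1* between endothelial cells and pericytes in vehicle; subtraction of the gene alone, also added then, gave −0.14 in β-cells. Some pericyte values could not be given in either library, since totals fell below the level subtracted. The vehicle value of −0.71 for *Nrp1* rests on the small pericyte total that was left. Except where stated, the cause of a change was not tested. Counts past the fold, higher and lower, were 98 and 252 in β-cells, 617 and 409 in α-cells, 337 and 550 in δ-cells and 545 and 1152 in endothelial cells. With a pseudocount of 0.1 they were 377 and 771 in β-cells. With a pseudocount of 10 they were 11 and 39, 84 and 29, 47 and 50, and 138 and 391. With at least 100 UMIs they were 214 and 105 in α-cells, 90 and 159 in δ-cells and 148 and 423 in endothelial cells. Without the 20 most abundant genes they were 266 and 441 in β-cells, 590 and 560 in α-cells and 683 and 999 in endothelial cells. With Spearman's correlation, 0 to 2 of the 3 genes most like each member were shared. Depth limits receptor values outside the endothelium, which rest on few UMIs.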

Other observations

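Related genes outside the 9 members also varied by class. *Vegfd*, a further VEGFR3 ligand, was at 267.7 CPM in vehicle and 154.0 CPM in FAKi fibroblasts (ratio 0.575, 0.456 to 0.718). In that class summed fibroblast markers were at 27051 and 18294 CPM and β-cell markers at 66818 and 133132 CPM. Their part in this ratio was not tested. *Angpt2*, which encodes a ligand of the endothelial receptor TIE2, was at 75.6 and 64.4 CPM in pericytes and at 42.8 and 55.2 CPM in endothelial cells, and *Pdgfrb*, the pericyte receptor for endothelial platelet-derived growth factor, at 980 and 999 CPM in pericytes. Among semaphorins, which share neuropilins with VEGF, *Sema3c* was at 201 and 166 CPM in ductal cells and *Sema3f* at 237 and 220 CPM in endothelial cells. *Hif1a*, which encodes a transcription factor that induces *Vegfa*, was at 28.0 and 23.6 CPM in β-cells.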
